A study of Arundo donax with 9 samples.

Results

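The cation transporters HKT6 and HKT9 were followed copy by copy in leaves of giant reed (Arundo donax), a perennial grass grown for biomass, under 2 doses of salt. Members are the assembled transcript clusters (unigenes) whose best Swiss-Prot description names cation transporter HKT6 or HKT9, both of rice. The rule used the annotation and no measured value, and it found 10 of 255855 unigenes, 3 named HKT6 and 7 named HKT9. An assembly made without a genome may break one gene of this polyploid grass into several unigenes, so each unigene is called a copy here without a claim that it is a separate gene.

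All plants were of 1 clone, G2, grown from rhizomes in pots, 1 rhizome to a pot, and watered every week. G2-CK plants received water without NaCl (0 mM), G2-S3 plants water with 250 mM NaCl (severe salt stress) and G2-S4 plants water with 420 mM NaCl (extreme salt stress). RNA was taken from whole, fully expanded leaves that were not senescing, and each group has 3 libraries, described as biological replicates. Since every library comes from the same clone, the spread between libraries is that between plants of 1 genotype.

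HKT proteins are plasma membrane transporters built like potassium channels. Members of class I mostly carry sodium, and in rice and wheat some of them take sodium out of the xylem sap and so keep it from the leaf blade. Members of class II, known from grasses, carry potassium as well as sodium. Rice HKT6 belongs to class I, and rice HKT9 to class II, where HKT3 is its closest relative.

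Expression was read as the FPKM (fragments per kilobase of unigene and per M reads of the library) and as the estimated read count of each unigene. The library totals behind the FPKM values were 23.01 to 25.69 M reads. Each list ends at 0.3 FPKM, so the level of an unlisted copy is known only to be no higher than that, and may or may not be 0. For the test an unlisted value was set to its upper limit in reads, and 127554 unigenes with enough reads were fitted together with edgeR. A change counts as called where the adjusted p of the quasi-likelihood F-test is under 0.05. The unigene of the study's reference gene, 26S proteasome subunit RPN6 (Cluster-14027.113435), had a log2 fold change of 0.02 ± 0.11 (SE) in G2-S3 vs G2-CK and of 0.15 ± 0.11 in G2-S4 vs G2-CK, with adjusted p of 0.931 and 0.337 (edgeR). Among the salt libraries, G2-S3 replicate 3 lay nearest to the controls, at a mean distance of 0.69 on the log2 CPM scale, against 0.77 and 0.83 for the other G2-S3 libraries.

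The 3 HKT6 copies share their best hit in the Nr protein database, a hypothetical protein of Sorghum bicolor. Cluster-14027.230647 is 3521 bp long and Cluster-14027.230649 is 3436 bp long, with Nr alignment scores of 1684 and 2016. Cluster-14027.230650 is a piece of 758 bp with a score of 659, and beside the cation transport domain it carries a Pfam entry for chain 6 of NADH-ubiquinone oxidoreductase, a protein of the respiratory chain. All 7 HKT9 copies share the probable cation transporter HKT9 of Setaria italica as best Nr hit. Of these, 6 are 1769 to 2092 bp long, with Nr scores of 1387 to 1558. The seventh, Cluster-14027.254874, is a piece of 426 bp with a score of 585. Cluster-14027.54233, the HKT9 copy with the highest score, also has a Pfam entry of the Ctr copper transporter family. Every one of the 10 copies has the Pfam domain of cation transport proteins, which the rule did not use.

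Of the 10 copies, 8 passed the filter on low counts, all 3 HKT6 copies and 5 HKT9 copies. Cluster-14027.54234 was listed in 1 library, at 0.46 FPKM in G2-S4 replicate 3. Cluster-14027.57932 was listed in 2 libraries, at 0.35 FPKM in G2-S4 replicate 1 and 0.40 FPKM in G2-S3 replicate 3. Both stayed untested. The mapping counted reads for copies that may be near-identical in sequence, so the split of reads between copies of 1 name is less certain than their sum.

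HKT6 was highest in unstressed leaves. Cluster-14027.230649, the copy with the most HKT6 reads, had 5.92, 7.59 and 4.90 FPKM in the G2-CK libraries, 0.89, 1.01 and 1.80 FPKM in the G2-S3 libraries and 0.32 FPKM in G2-S4 replicate 2, and was not listed in the other G2-S4 libraries. In estimated reads this copy held 355.84 to 614.83 in the libraries of G2-CK, 66.13 to 132.17 in those of G2-S3 and 23 in the listed library of G2-S4. The 3 groups do not overlap, and the highest G2-S3 value is that of replicate 3, the library nearest to the controls. The long copy Cluster-14027.230647 had 1.80, 1.2 and 1.11 FPKM in G2-CK and was listed in no library of G2-S3 or G2-S4. The short copy Cluster-14027.230650 had 7.99, 6.92 and 3.76 FPKM in G2-CK and 0.44, 1.29 and 1.15 FPKM in G2-S3, from 5 to 15.29 reads, and was not listed in G2-S4. All 3 copies are thus listed in every library without salt, and 1 of them in a single library at the higher dose.

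**Figure D1:**
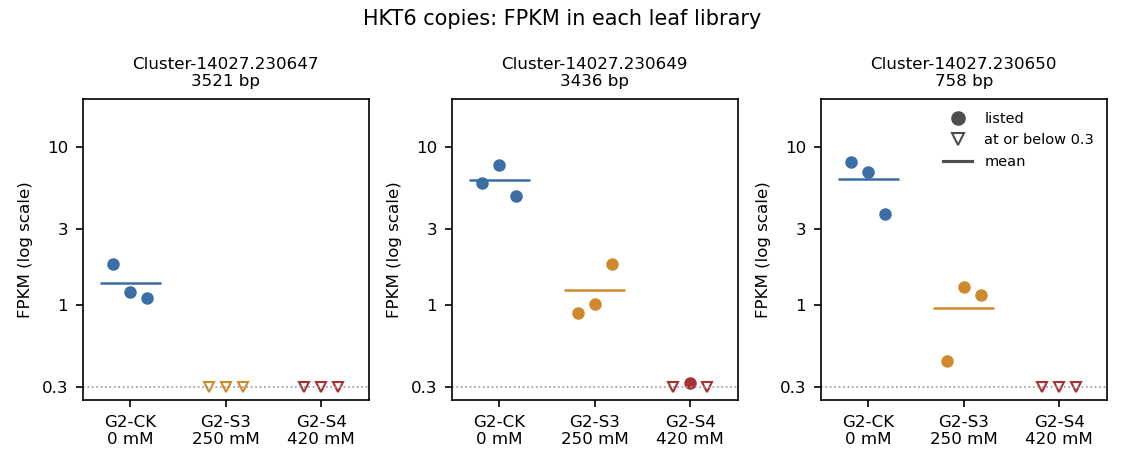
FPKM of the 3 HKT6 copies in each library (log scale; groups by NaCl dose; open triangles mark libraries where the copy was not listed, at or below 0.3 FPKM, and lines the mean where all 3 libraries are listed). Cluster-14027.230649 averaged 6.14 FPKM in G2-CK and 1.23 FPKM in G2-S3, and all copies lay at or next to the limit in G2-S4.

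The leading HKT9 copy showed the opposite order of groups. Cluster-14027.54233, the copy with the most HKT9 reads, had 0.50, 0.34 and 0.51 FPKM in the G2-CK libraries, 1.46, 1.47 and 1.66 FPKM in the G2-S3 libraries and 3.55, 5.40 and 5.17 FPKM in the G2-S4 libraries. Its estimated reads were 15.89 to 22.20 in the G2-CK libraries, 62.16 to 70.00 in those of G2-S3 and 152.77 to 228.41 in those of G2-S4. The 3 groups do not overlap, and each dose lies above the one below it in every library. Within its library this copy exceeded 2.72% to 15.4% of the listed unigenes without salt (G2-CK), 48.9% to 51.7% under severe stress (G2-S3) and 69.5% to 76.9% under extreme stress (G2-S4).

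The short HKT9 copy Cluster-14027.254874 had 0.83, 2.89 and 0.75 FPKM in G2-CK, 4.61, 4.60 and 2.69 FPKM in G2-S3 and 10.23, 13.49 and 12.62 FPKM in G2-S4. In every G2-S3 and G2-S4 library these are the highest FPKM values of any HKT9 copy, but because the piece is short they rest on few reads, 2.53 to 10.66 in a G2-CK library, 9.29 to 18.00 in a G2-S3 library and 34.36 to 45.22 in a G2-S4 library. G2-CK replicate 2 stands above the other controls and above G2-S3 replicate 3, so G2-S3 and G2-CK overlap, whereas all G2-S4 libraries lie above all others.

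Cluster-14027.57933 is the HKT9 copy that was most abundant per length among the long copies without salt. Its FPKM was 1.13, 1.56 and 1.26 in G2-CK, 1.32, 1.75 and 1.60 in G2-S3 and 2.87, 1.71 and 2.61 in G2-S4. The G2-S4 libraries lie above all controls, but G2-S4 replicate 2 lies below G2-S3 replicate 2.

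Cluster-14027.57931 had 0.34 and 0.40 FPKM in G2-CK replicates 1 and 2 and was not listed in replicate 3, with 0.58, 0.68 and 0.56 FPKM in G2-S3 and 1.03, 0.85 and 0.39 FPKM in G2-S4. G2-S4 replicate 3 lies within the range of the controls. Cluster-14027.81324 was listed in no control library, at 0.32 FPKM in G2-S3 replicate 1 alone, and at 0.36, 0.82 and 0.68 FPKM in the G2-S4 libraries.

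**Figure D2:**
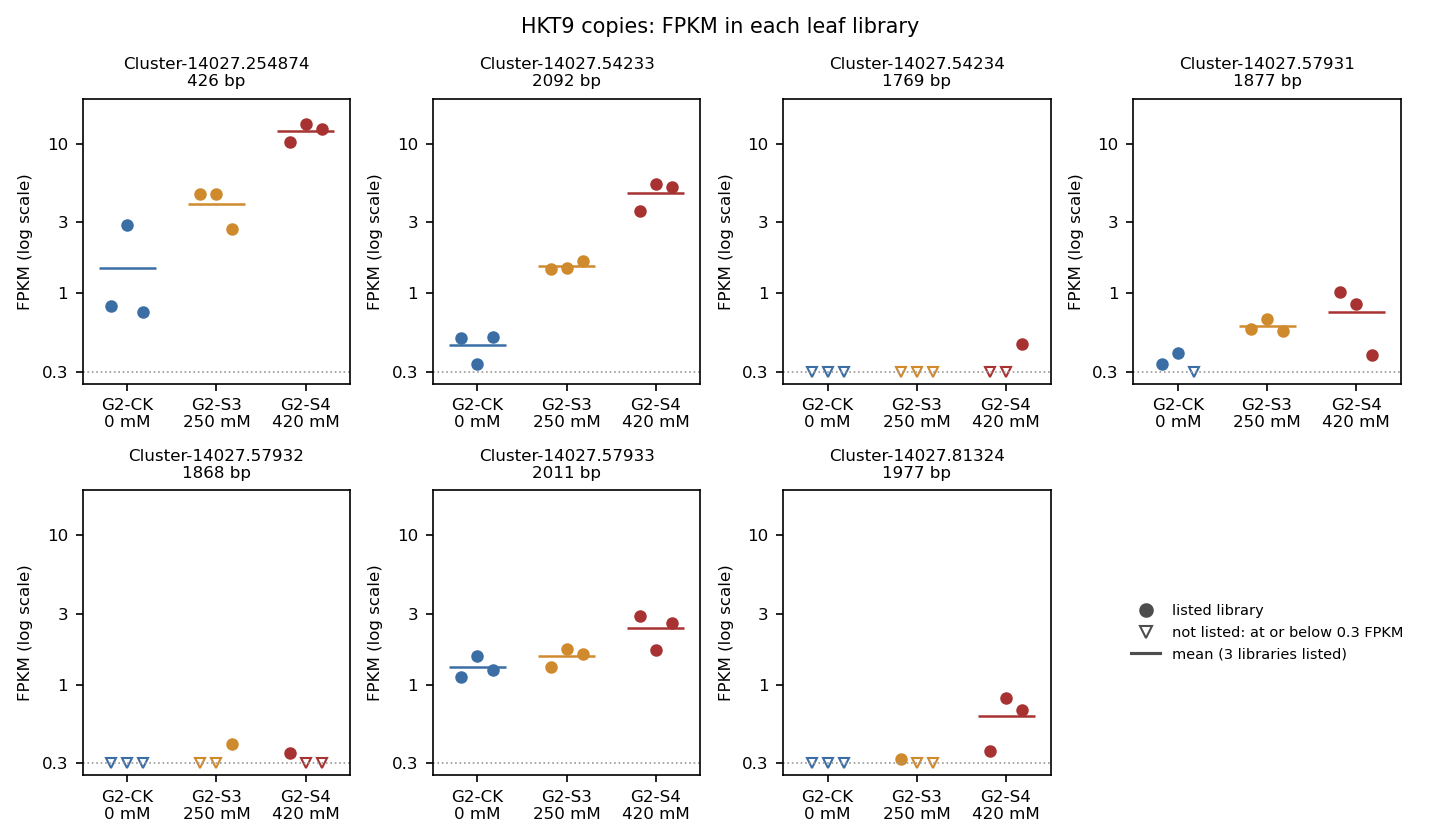
FPKM of the 7 HKT9 copies in each library (log scale; groups by NaCl dose; open triangles mark libraries where the copy was not listed, at or below 0.3 FPKM, and lines the mean where all 3 libraries are listed). Cluster-14027.54233 averaged 0.45, 1.53 and 4.71 FPKM in G2-CK, G2-S3 and G2-S4, with no overlap between the groups.

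In G2-S3 vs G2-CK, the effect of the severe dose, the leading HKT6 copy fell and 1 HKT9 copy rose. Of all tested unigenes 5.73% were called in this comparison, 3.41% higher and 2.32% lower. Cluster-14027.230649 fell to 1.23 ± 0.49 FPKM in G2-S3, against 6.14 ± 1.36 FPKM in G2-CK (SD, n = 3 each), a log2 fold change of -2.28 ± 0.25 (SE) with an adjusted p of 0.00136 (edgeR). Cluster-14027.230650 lay at 0.960 ± 0.456 FPKM in G2-S3, against 6.22 ± 2.20 FPKM in G2-CK. The log2 fold change was -2.61 ± 0.40, and the groups do not overlap. Cluster-14027.230650 passed the filter on low counts through G2-CK, where it is high, so these values are a description and no test. Cluster-14027.230647 was at least 4.57-fold lower in G2-S3, where it was unlisted, than in G2-CK, where it averaged 1.37 ± 0.38 FPKM. This copy passed the filter through G2-CK alone and was set to its limit elsewhere, so its direction was fixed before the test, and its level is a description at both doses.

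On the HKT9 side Cluster-14027.54233 rose to 1.53 ± 0.11 FPKM in G2-S3, against 0.450 ± 0.095 FPKM in G2-CK (SD, n = 3 each), with a log2 fold change of 1.82 ± 0.24 and an edgeR adjusted p of 0.00285. Cluster-14027.254874, Cluster-14027.57931 and Cluster-14027.57933 did not pass the test. Their log2 fold changes were 0.30 to 1.46, with edgeR adjusted p of 0.110 to 0.549. Cluster-14027.81324 was set to its limit in all G2-CK libraries and was listed in G2-S3 replicate 1 alone, at 0.32 FPKM. It passed the filter through G2-S4, so its log2 fold change of 0.10 is a description and no test. As a description over the fitted copies, the median log2 fold change was -2.28 for HKT6 and 0.88 for HKT9. The HKT6 median includes Cluster-14027.230647 and Cluster-14027.230650, and the HKT9 median Cluster-14027.81324, whose values are no test. The calls of Cluster-14027.230649 and of Cluster-14027.54233 held without any single library in turn, G2-S3 replicate 3 included. With unlisted values set to 0 in place of their limit, Cluster-14027.230649 lost its call (edgeR adjusted p = 0.125 under that setting).

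In G2-S4 vs G2-CK, the effect of the extreme dose, 5 tested copies were listed in both groups, of which the 1 HKT6 copy fell and the 4 HKT9 copies rose. The other 3 tested copies were listed in 1 of these groups alone, so that the direction of their difference was fixed by the limit, and they are described without a test. Here 28.0% of all tested unigenes were called, 14.2% higher and 13.8% lower. Cluster-14027.230649 had a log2 fold change of -4.18 ± 0.29 (SE) with an adjusted p of 9.27e-06 (edgeR), and 0.0941% of all tested unigenes had a lower log2 fold change. Its value rests in part on the limit, to which 2 of the 3 G2-S4 libraries were set. Cluster-14027.230650 was at least 20.7-fold lower in G2-S4 than in G2-CK and Cluster-14027.230647 at least 4.57-fold lower. These bounds set the mean of G2-CK against the limit of 0.3 FPKM in G2-S4.

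Cluster-14027.54233 rose to 4.71 ± 1.01 FPKM in G2-S4, against 0.450 ± 0.095 FPKM in G2-CK (SD, n = 3 each), a log2 fold change of 3.53 ± 0.24 or 11.5-fold, with an edgeR adjusted p of 7.99e-06. Of all tested unigenes 0.742% had a higher log2 fold change. Cluster-14027.254874 rose to 12.1 ± 1.7 FPKM in G2-S4, against 1.49 ± 1.21 FPKM in G2-CK, a log2 fold change of 3.00 ± 0.44 with an edgeR adjusted p of 0.000662. Cluster-14027.57933 rose 2.00-fold in the fit, to 2.40 ± 0.61 FPKM in G2-S4, against 1.32 ± 0.22 FPKM in G2-CK, with an edgeR adjusted p of 0.0113.

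The call of Cluster-14027.57931 (log2 fold change 1.27 ± 0.37, edgeR adjusted p = 0.0251) was the least firm. Leaving out any 1 of the 3 controls ended it, with edgeR adjusted p of 0.0680, 0.0542 and 0.0818 without G2-CK replicates 1, 2 and 3. It was lost too without G2-S4 replicate 1 (0.0976) or replicate 2 (0.0747). Unlisted values set to 0 and no filter on low counts ended it as well (edgeR adjusted p = 0.259 and 0.0512), as did limma (adjusted p = 0.0628). Cluster-14027.81324, listed in all libraries of G2-S4 and in none of G2-CK, had a mean in G2-S4 of 2.07 times the limit of 0.3 FPKM.

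In G2-S4 vs G2-S3, the step between the doses, 1 HKT6 copy fell and 2 HKT9 copies rose, while 14.1% of all tested unigenes were called, 7.24% higher and 6.87% lower. Cluster-14027.230649 had a log2 fold change of -1.90 ± 0.29 (SE) with an edgeR adjusted p of 0.00204. Cluster-14027.54233 rose 3.26-fold in the fit, to 4.71 FPKM in G2-S4, against 1.53 FPKM in G2-S3, with an edgeR adjusted p of 0.000636. Its log2 fold changes over the step to 250 mM and the step between the doses, 1.82 and 1.71, are close in size, but the comparisons share the G2-S3 libraries.

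Cluster-14027.254874 had a log2 fold change of 1.54 ± 0.39 between the doses (edgeR adjusted p = 0.0246). The call was lost without replicate 1 or 3 of G2-S3 (edgeR adjusted p = 0.0588 and 0.0741) and without replicate 2 or 3 of G2-S4 (0.0734 and 0.0643). It was lost too with unlisted values set to 0 (0.123) and with no filter on low counts (0.0576). Cluster-14027.57933 lay just outside the threshold between the doses, with a log2 fold change of 0.71 and an edgeR adjusted p of 0.0805. It passed without G2-S4 replicate 2 (0.0419). Cluster-14027.230650, listed in all libraries of G2-S3 and in none of G2-S4, was at least 3.2-fold lower in G2-S4. The limit fixed its direction, so this bound is a description. Cluster-14027.81324 passed the filter through G2-S4, where it is high, and was listed in G2-S3 replicate 1 alone. Its log2 fold change of 1.07 is given without a test. Cluster-14027.230647 was listed in neither group, so that no difference between the doses could be seen.

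**Figure D3:**
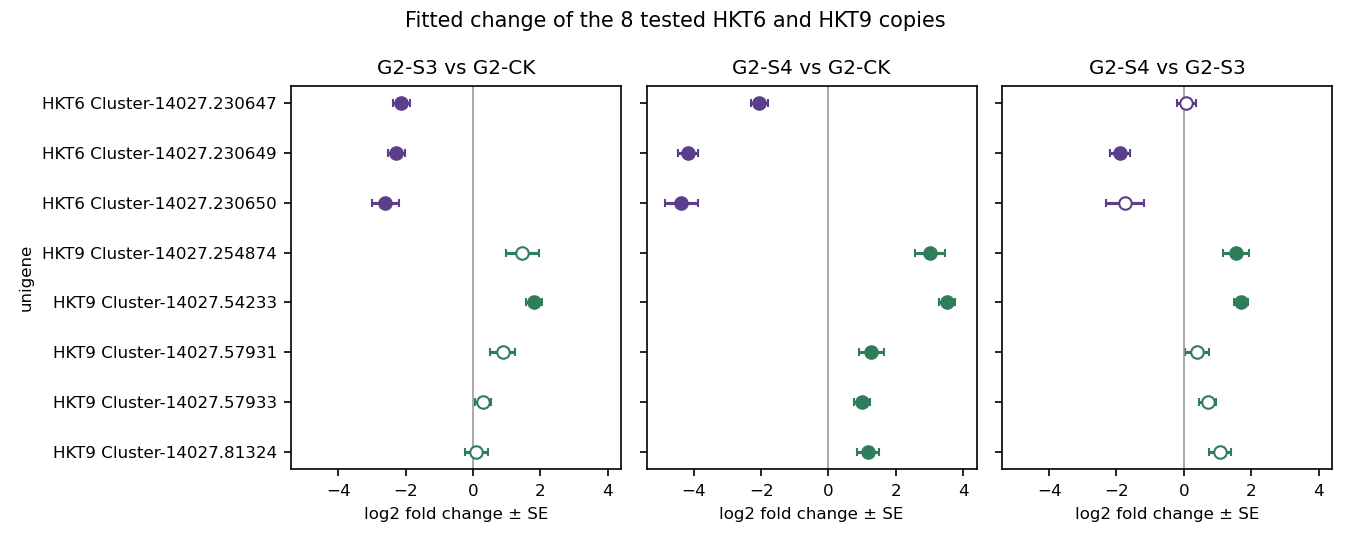
Fitted log2 fold changes with their SE for the 8 tested copies in the 3 comparisons (filled points passed the test at an adjusted p under 0.05, open points did not). The points of Cluster-14027.230647 and Cluster-14027.230650 in all 3 comparisons are no test. Nor are those of Cluster-14027.81324. In G2-S4 vs G2-CK, where 3 copies were listed in 1 of the groups alone and their points are no test, the 3 HKT6 copies lie between -4.37 and -2.06 and the 5 HKT9 copies between 1.00 and 3.53, but the values of copies that were unlisted in a group depend on the limit of 0.3 FPKM.

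Summed over copies, HKT6 came to 15.71, 15.71 and 9.77 FPKM in the G2-CK libraries, 1.33, 2.30 and 2.95 FPKM in the G2-S3 libraries and 0.32 FPKM in G2-S4 replicate 2, with no listed copy in the other G2-S4 libraries. With unlisted copies at their limit, summed HKT6 was at least 5.51-fold lower in G2-S3 and at least 15.1-fold lower in G2-S4 than in G2-CK. Summed HKT9 came to 2.80, 5.19 and 2.52 FPKM in G2-CK, 8.29, 8.50 and 6.91 FPKM in G2-S3 and 18.39, 22.27 and 21.93 FPKM in G2-S4. The HKT9 sum in G2-S4 exceeded that in G2-CK at least 4.63-fold. The sums are a description and were not tested. In CPM (listed reads per M reads of the TMM-adjusted library total), which weights a copy by its reads and not by its length, and with unlisted copies adding 0, HKT6 averaged 25.7 ± 5.3 in G2-CK, 4.30 ± 1.56 in G2-S3 and 0.352 ± 0.610 in G2-S4, and HKT9 averaged 3.55 ± 0.58, 7.40 ± 0.28 and 18.0 ± 1.2 (SD, n = 3 each).

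By reads the copies did not hold the same part of HKT9 at each dose. Cluster-14027.57933 held 55.3% to 68.0% of the HKT9 reads in the G2-CK libraries, 32.1% to 40.3% in the G2-S3 libraries and 17.0% to 31.8% in the G2-S4 libraries. Cluster-14027.54233 held 14.2% to 28.6% of them at 0 mM, 35.4% to 39.0% at 250 mM and 41.1% to 56.3% at 420 mM, so the copy with the most reads without salt and the one with the most reads at 420 mM are different unigenes. By FPKM, where the short copy weighs more, the share of Cluster-14027.54233 was 6.55% to 20.2% at 0 mM, 17.3% to 24.02% at 250 mM and 19.3% to 24.2% at 420 mM, and the groups overlap. Per length, Cluster-14027.54233 had 0.218 to 0.442 times the FPKM of Cluster-14027.57933 at 0 mM, 0.840 to 1.11 times at 250 mM and 1.24 to 3.16 times at 420 mM. By FPKM the short Cluster-14027.254874 took 55.6% to 60.6% of the HKT9 sum in G2-S4 and 29.6% to 55.7% in G2-CK, but by reads 9.24% to 10.8% in G2-S4 and 3.42% to 9.51% in G2-CK. Among the HKT6 copies Cluster-14027.230649 held 83.3% to 93.0% of the reads in G2-S3 and 65.9% to 76.9% in G2-CK.

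**Figure D4:**
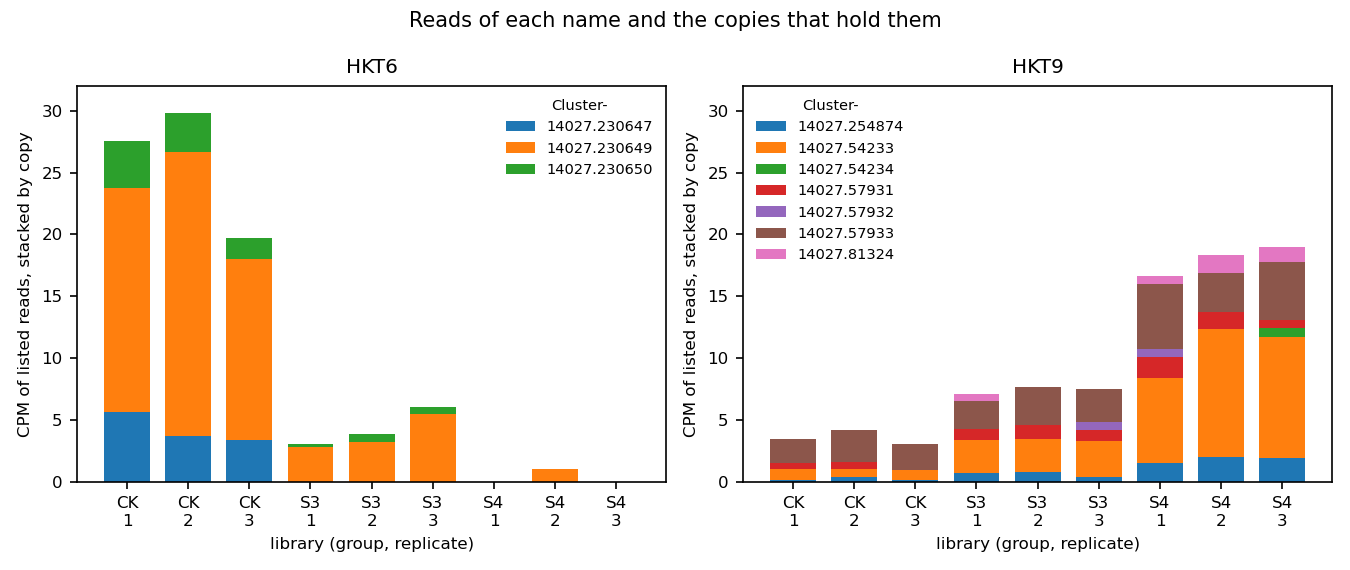
Listed reads of HKT6 and HKT9 in each library, in CPM, stacked by copy (libraries in order of dose, numbered by replicate; an unlisted copy adds 0). HKT6 reaches 1.06 CPM at most in G2-S4 and ranges from 19.7 to 29.8 CPM in G2-CK, whereas HKT9 ranges from 16.6 to 19.0 CPM in G2-S4 and from 3.03 to 4.18 CPM in G2-CK.

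The ratio between the 2 leading long copies also moved along the doses. The FPKM of Cluster-14027.54233 (HKT9) divided by that of Cluster-14027.230649 (HKT6) was 0.0845, 0.0448 and 0.104 in the G2-CK libraries and 1.64, 1.46 and 0.922 in the G2-S3 libraries. In G2-S4 the ratio was at least 11.8, 16.9 and at least 17.2, the bounds being those of the libraries in which the HKT6 copy was unlisted. G2-S3 replicate 3 was the only salt library in which the HKT6 copy still had the higher FPKM.

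Further HKT unigenes are named HKT1, HKT2, HKT3, HKT4, HKT7 or HKT8. Of 33 such unigenes 14 were tested, and 0 were called by edgeR in G2-S3 vs G2-CK, beside 5.73% of all tested unigenes, where 2 had an unadjusted p under 0.05 and DESeq2 and limma called 0. In G2-S4 vs G2-CK 4 of the 14 fell and 1 was called higher, which is 35.7%, beside 28.0% of all tested unigenes. HKT1 of rice is a class II transporter that brings sodium into the root when potassium is short, and 3 of its tested copies were called lower. The most abundant of them, Cluster-14027.137187, had 2.86, 2.24 and 1.28 FPKM in G2-S4, against 5.81, 7.45 and 6.93 FPKM in G2-CK, with a log2 fold change of -1.52 ± 0.24 and an edgeR adjusted p of 0.000925. Cluster-14027.148405 and Cluster-14027.86543, both HKT1, had log2 fold changes of -1.88 and -0.63 with edgeR adjusted p of 0.00458 and 0.0249. The tested HKT1 copies Cluster-14027.155258 and Cluster-14027.96923 were not called. Their log2 fold changes were -0.90 and -0.02, with edgeR adjusted p of 0.0775 and 0.979. Cluster-14027.261903, a copy of HKT7, a class I transporter, had a log2 fold change of -0.82 with an edgeR adjusted p of 0.0299.

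The unigene called higher was Cluster-14027.81325, which Swiss-Prot names HKT3 but which has the same Nr best hit as the HKT9 copies. It was listed at 0.53, 0.60 and 0.53 FPKM in G2-S4 and in no library of G2-CK or G2-S3. It passed the filter through G2-S4 alone, which fixed its direction, so its call is no test. It is the only unigene outside the members that shares a best Nr hit with one of them. These HKT unigenes beyond the leading one were chosen for mention after their values were seen.

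The wider list of sodium and potassium transport holds 505 unigenes, 341 of them tested. In G2-S4 vs G2-CK 85 of these rose, 49 fell and 207 did not pass the test, which is 39.3% called, beside 28.0% of all tested unigenes. Their median log2 fold change was 0.12, beside -0.03 over all unigenes tested. In G2-S3 vs G2-CK 24 rose and 17 fell, 41 in all or 12.0%, beside 5.73% of all tested unigenes. The balance of directions turned under other settings, with 26 higher and 27 lower by DESeq2, 13 and 16 by limma, 7 and 8 without replicate 2 of G2-CK and 5 and 9 without its replicate 3. The count of calls was 57 without replicate 3 of G2-S3, 30 without replicate 3 of G2-S4, 27 and 25 without replicates 1 and 2 of G2-S4, 18, 15 and 14 without replicates 1, 2 and 3 of G2-CK, and 13 and 12 without replicates 1 and 2 of G2-S3. In G2-S4 vs G2-S3 47 rose and 12 fell, 59 in all or 17.3%, beside 14.1% of all tested unigenes, and the count was 37 without replicate 1 of G2-S3 or replicate 2 of G2-S4 and 39 without replicate 1 of G2-S4. Over all tested unigenes 8.36% to 9.09% were called under those settings.

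Among the sodium/hydrogen exchangers, which move sodium out of the cytosol, 14 of 62 tested rose and 10 fell in G2-S4 vs G2-CK. That is 38.7% called by edgeR, beside 28.0% of all tested unigenes, 14.2% higher and 13.8% lower. Limma called 8 of the exchangers higher and 11 lower. Cluster-14027.172803, sodium/hydrogen exchanger 2 and the most abundant of those called, had 27.15, 19.66 and 16.85 FPKM in G2-S4, against 92.22, 43.66 and 38.70 FPKM in G2-CK (log2 fold change -1.32 ± 0.38, edgeR adjusted p = 0.0241). Of the HAK potassium transporters, a family of potassium carriers, 37 of 148 rose and 17 fell, or 36.5% called. Cluster-14027.170423, potassium transporter 10, had 46.22, 49.33 and 41.48 FPKM in G2-S4, against 29.07, 31.00 and 37.45 FPKM in G2-CK (log2 fold change 0.63 ± 0.12, edgeR adjusted p = 0.00276).

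Of the potassium channels, 12 of 40 rose and 7 fell in G2-S4 vs G2-CK, or 47.5% called, beside 28.0% of all tested unigenes. Cluster-14027.190984, the phloem channel AKT2, had 17.40, 13.86 and 18.85 FPKM in G2-S4, against 27.72, 28.34 and 27.03 FPKM in G2-CK (log2 fold change -0.59 ± 0.14, edgeR adjusted p = 0.00827). Of the K+ efflux antiporters, some of which act in the plastid, 6 of 34 rose and 6 fell by edgeR, or 35.3% called. Limma called 3 of them higher and 9 lower. Cluster-14027.177507, the most abundant of those called by edgeR, had a log2 fold change of -0.50 ± 0.14 (edgeR adjusted p = 0.0193).

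Of the CHX cation/H+ antiporters, 3 of 14 rose and 5 fell in G2-S4 vs G2-CK, or 57.1% called. Cluster-14027.25875, a copy of CHX16, was listed in 1 control library, at 0.33 FPKM, and had 13.39, 6.38 and 1.87 FPKM in G2-S3 and 15.51, 30.73 and 26.33 FPKM in G2-S4 (G2-S4 vs G2-CK, edgeR adjusted p = 0.000106). Of the SOS kinase CIPK24 and its calcium sensors, 12 of 29 rose and 0 fell in G2-S4 vs G2-CK by edgeR. That is 41.4% called, beside 28.0% of all tested unigenes, 14.2% higher and 13.8% lower. In this class 0 were lower at an unadjusted edgeR p under 0.05, and DESeq2 and limma called 0 lower. The median log2 fold change was 0.67. The kinase unigene Cluster-14027.180575 had 18.26, 16.80 and 19.39 FPKM in G2-S4, against 12.80, 12.54 and 12.15 FPKM in G2-CK (log2 fold change 0.67 ± 0.12, edgeR adjusted p = 0.00216).

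Neighbours in pattern were sought among 42357 unigenes with a Swiss-Prot description, by Pearson correlation of log2 CPM over the 9 libraries. All libraries share the 3 groups, so the values describe the order of the groups more than anything else. Nearest to Cluster-14027.230649 (HKT6) were Cluster-14027.108275, a 2-hydroxyisoflavanone dehydratase (r = 0.994), Cluster-14027.202510, a transposon polyprotein (r = 0.993), and Cluster-14027.133663, a sulfite exporter family protein (r = 0.993). The first of them had 15.57, 17.41 and 16.87 FPKM in G2-CK, 3.45, 3.70 and 7.37 FPKM in G2-S3 and 1.79, 1.78 and 1.73 FPKM in G2-S4. Nearest to Cluster-14027.54233 (HKT9) were Cluster-14027.163107, a plastid chaperonin 60 subunit (r = 0.993), Cluster-14027.88072, a subunit of the pyrophosphate-dependent phosphofructokinase (r = 0.990), and Cluster-14027.160482, a cyclic dof factor (r = 0.990). The chaperonin had 12.81, 9.76 and 13.09 FPKM in G2-CK, 19.35, 19.72 and 19.37 FPKM in G2-S3 and 32.55, 35.61 and 37.44 FPKM in G2-S4.

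The labelled tissue was checked against markers. The 80 unigenes of leaf mesophyll (Rubisco small subunit, chlorophyll a-b binding proteins and phosphoribulokinase) summed to 11249 to 13832 FPKM in G2-CK, whereas 4 unigenes of Casparian strip membrane proteins, which mark the root endodermis, summed to 6.20 to 6.75 FPKM. Several marker sums moved with the dose, as HKT6 and HKT9 did. The endodermis sum was 3.40 to 5.31 FPKM in G2-S3 and 2.53 to 3.23 FPKM in G2-S4, with 4, 3 and 3 of its 4 unigenes listed in G2-CK, G2-S3 and G2-S4, and no salt library reached the controls. The mesophyll sum was 9234 to 10189 FPKM in G2-S3 and 3728 to 4345 FPKM in G2-S4, and 72, 70 and 75 of its 80 unigenes were listed in G2-CK, G2-S3 and G2-S4. KAT potassium channels, guard cell markers that also belong to the class of potassium channels above, have 30 unigenes, of which 18, 21 and 22 were listed at 0, 250 and 420 mM. Their sum was 12.60 to 15.61 FPKM in G2-CK, 22.34 to 35.94 FPKM in G2-S3 and 53.15 to 58.54 FPKM in G2-S4.

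The vascular markers, 33 unigenes of SUT sucrose transporters and 52 of laccases, had 54, 75 and 53 of 85 listed in G2-CK, G2-S3 and G2-S4. Their joint sum was 524 to 599 FPKM at 0 mM, 518 to 776 FPKM at 250 mM and 588 to 626 FPKM at 420 mM. Within it the laccases moved, with 20.73 to 27.05 FPKM at 0 mM, 53.51 to 227.11 FPKM at 250 mM and 75.15 to 103.44 FPKM at 420 mM. The SUT transporters hold most of the sum, and their groups overlap. They had 497 to 572 FPKM at 0 mM, 464 to 549 FPKM at 250 mM and 489 to 522 FPKM at 420 mM. Of the 29 senescence markers 24, 28 and 24 were listed in G2-CK, G2-S3 and G2-S4. Their cysteine proteases summed to 2227 to 2715 FPKM in G2-CK, 1022 to 1367 FPKM in G2-S3 and 464.71 to 564.05 FPKM in G2-S4. Their STAY-GREEN unigenes did not follow the dose, with 94.90 to 159.88 FPKM in G2-CK, 64.95 to 99.76 FPKM in G2-S3 and 291.10 to 518.57 FPKM in G2-S4. No defining marker was at 0 in any group. The part of these shifts in the changes of HKT6 and HKT9 was not tested. In whole leaves, fewer cells of a type and less RNA per cell cannot be told apart.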

How the data were processed

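RNA of 9 leaf libraries was sequenced as poly(A)-selected, unstranded libraries. The authors called bases with CASAVA 1.8, per the labels, assembled the reads with Trinity, clustered transcripts with Corset, mapped each library with bowtie2 and estimated the read counts with RSEM. The authors deposited these expected counts and an FPKM value for every unigene listed in a library, with its length and annotation. Reads were counted without strand, so an antisense transcript cannot be told from its partner.

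Members were found by the Swiss-Prot description. The members and lists were chosen with earlier results of these data known. Expected counts were rounded to whole numbers. Unlisted values make up 36.8% of the table, and each was set to its limit in reads, 0.3 FPKM times the reads per FPKM of listed unigenes of its length. Listed counts passed filterByExpr (minimum count 10) for 127554 unigenes, which were fitted with edgeR 4.0.16 (TMM factors 0.940 to 1.06, group means over all 9 libraries, quasi-likelihood F-test, two-sided) in R 4.3.3 and adjusted by Benjamini-Hochberg with a threshold of 0.05. Alternatives used limma 3.58.1 on log2(FPKM + 1) and DESeq2 1.42.0. Summed FPKM, shares of copies and marker sums carry no test.

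Copies listed in at least 3 libraries were described one by one. For the most abundant tested copy of each name, the 3 annotated unigenes with the highest correlation and a mean log2 CPM of at least 1 (prior count 2) were named, and in each class of the transport list the most abundant unigene called in G2-S4 vs G2-CK. Library totals, fitted from count, FPKM and length, set the precision: 1 FPKM of a unigene of 2092 bp stands for 41.7 to 46.4 reads. Python 3.11.15 with pandas 2.3.3, numpy 2.4.6 and matplotlib 3.10.9 served for tables and plots.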

Additional observations from a re-analysis of the deposited data

How the results depend on the processing

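The test was repeated under 19 alternatives, 9 of which leave out 1 library each. Of 453 values of single copies under an alternative, 423 stayed on their side of the threshold, 22 lost the call, 8 gained it, and 0 called values turned round. Counts of called copies include those listed in 1 group alone, whose direction the limit fixed. They also include Cluster-14027.230650 and Cluster-14027.81324, which passed the filter through the group where they are high. The number of called copies in G2-S4 vs G2-CK was 8, and 6 to 8 without single libraries. In G2-S4 vs G2-S3 it was 3, and 2 to 4 without single libraries. It was 5 with missing values at 0.5 of the limit. In G2-S3 vs G2-CK it was 4, also without any single library, and 2 with missing values as 0. The counts of the transport list changed more, as did the calls over all tested unigenes. The list's count in G2-S3 vs G2-CK, 41 in all, was 12 to 57 without single libraries and 18 with missing values as 0. It was 12 with no filter on low counts, which adds to the unigenes adjusted over, and 27 with the libraries of the 2 groups alone. Over all tested unigenes 1.67% to 8.22% were called without single libraries, beside 5.73% in the main fit. That share was 2.81% with missing values as 0, 1.15% with no filter and 4.54% with the 2 groups alone. The list's count in G2-S4 vs G2-S3, 59 in all, was 37 to 53 without single libraries and 35 both with missing values as 0 and with no filter. There 8.36% to 12.5% of all tested unigenes were called without single libraries, beside 14.1% in the main fit. That share was 9.95% with missing values as 0 and 4.69% with no filter. The list's count in G2-S4 vs G2-CK was 97 to 141 without single libraries, where 20.2% to 28.4% of all tested unigenes were called. Other causes of these shifts were not tested. There were 2 alternatives added after the data were seen, a limit from the full unigene length, which moved no count of called copies, and shares of reads.

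The log2 ratio of summed HKT6 FPKM was -7.01 in G2-S4 vs G2-CK and -3.92 with missing values at 0.3 FPKM, and -4.36 and -1.46 in G2-S4 vs G2-S3, because G2-S4 lies at the limit. It could not be had without G2-S4 replicate 2 or without the leading copy, where no listed value is left in G2-S4. For HKT9 the ratio in G2-S4 vs G2-S3 was 1.40, and 1.15 without the copy with the largest share of FPKM. By reads in place of FPKM the mean share of Cluster-14027.54233 was 22.8% in G2-CK, 37.2% in G2-S3 and 49.6% in G2-S4, against 14.9%, 19.6% and 22.4% by FPKM, and that of the short Cluster-14027.254874 was 5.50%, 8.36% and 10.1%, against 38.4%, 49.6% and 57.9%.

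Libraries of equal replicate number were not more alike than others. The correlation of their deviations from the group means was -0.11 to 0.04 over 9 pairs, against -0.06 to 0.09 over 18 pairs with different numbers. The study placed its pots in randomized blocks, and whether the replicate numbers follow those blocks is not stated. With 3 libraries in a group, these correlations cannot settle whether blocks had an effect. With the replicate number as a block the number of called copies was 4 for severe stress against control, 8 for extreme stress against control and 3 between the doses, the same as without it. The transport list had 22, 122 and 45 calls with the block, against 41, 134 and 59 without it. Of all tested unigenes 3.62%, 25.2% and 11.5% were called with the block, against 5.73%, 28.0% and 14.1% without it. Values near 0.3 FPKM, such as those of the long HKT6 copies in G2-S4, are limited by the lists and not by the depth. For the short Cluster-14027.230650 the limit in G2-S4 was 3.25 to 3.49 reads, so that depth limits it as well.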
